A study of Drosophila melanogaster with 2 samples.

Results

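The 8 homeotic genes of Drosophila melanogaster (lab, pb, Dfd, Scr and Antp of the Antennapedia complex, Ubx, abd-A and Abd-B of the bithorax complex) and the cofactor genes hth and exd were examined for chromatin binding of CG17806, a zinc finger protein that the submitters assayed as a transcription factor. These 10 genes were chosen by name out of 13945 protein-coding genes on the major chromosome arms. All samples came from 1 group, a transgenic line that stably carries CG17806 with GFP fused at its C terminus, collected as whole pupae at 24 hours, with the sex not collected. Chromatin was immunoprecipitated with an anti-GFP antibody and sequenced (ChIP-seq) in 2 biological replicates, labelled 1 and 2. No other genotype or stage was present, so no groups could be compared and no test across conditions was possible. Because whole organisms were used, the cells that carried a given site could not be told apart.

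The deposited data were 4 lists of peaks on the dm6 genome. The list of each replicate and the list called on both together, called pooled here, held 30000 peaks each. The fourth list, called IDR here after the irreproducible discovery rate on which it was filtered, held 7645 peaks, which were at the same summits as the 7645 pooled peaks of highest signal. A summit is the base of highest signal in a peak, and a rank is the place of a peak by signal within its own list, with 1 the highest. The replicate lists reach far into weak peaks: a q-value under 0.05 was deposited for 79.9% of the peaks of replicate 1 and for 42.6% of those of replicate 2. The number of sequenced reads is not used here, so depth is unknown, and intervals below are exact Poisson (summits per kb) or Wilson (shares) 95% intervals that cover counting error only. Neighbouring summits are not independent.

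Homeotic genes encode homeodomain transcription factors that give each body segment its identity, and they lie along the chromosome in about the order of the segments they specify. lab, pb, Dfd and Scr act in the head and the first thoracic segment, Antp in the thorax, Ubx in the posterior thorax and first abdominal segment, and abd-A and Abd-B in the abdomen. Exd, a homeodomain protein of the PBC class, binds DNA together with homeotic proteins, and Hth, of the MEIS class, carries Exd into the nucleus. The long introns and the sequence between the genes hold enhancers, Polycomb response elements and insulators.

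The sequences at the strongest summits are given here because the results turn on where these summits lie and on their base composition. Each is 101 bases long, with the summit in the middle, on the plus strand of dm6, and the capitals mark the longest uninterrupted run of A and T. The first 7 come from the pooled list. The last, in Abd-B, comes from replicate 2 and has no counterpart in the other lists. The Ubx to abd-A window lies in an intron of the non-coding RNA gene bxd.
hth, chr3R:10517985-10518085: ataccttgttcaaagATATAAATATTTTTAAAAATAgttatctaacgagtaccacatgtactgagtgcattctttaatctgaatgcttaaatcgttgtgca
hth, chr3R:10533303-10533403: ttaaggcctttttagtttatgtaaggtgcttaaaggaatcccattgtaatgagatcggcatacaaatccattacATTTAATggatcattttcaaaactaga
Antp, chr3R:6914490-6914590: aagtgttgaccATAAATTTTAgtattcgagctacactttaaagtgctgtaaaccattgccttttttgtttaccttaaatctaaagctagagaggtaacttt
Ubx, chr3R:16676612-16676712: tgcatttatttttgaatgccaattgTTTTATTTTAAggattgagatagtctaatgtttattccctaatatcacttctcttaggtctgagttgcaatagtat
Dfd to Scr, chr3R:6812236-6812336: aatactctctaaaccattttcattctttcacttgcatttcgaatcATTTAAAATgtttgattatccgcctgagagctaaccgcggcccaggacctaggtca
pb to Dfd, chr3R:6763030-6763130: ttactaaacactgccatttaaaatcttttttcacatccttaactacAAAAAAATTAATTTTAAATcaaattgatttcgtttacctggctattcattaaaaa
Ubx to abd-A, chr3R:16771744-16771844: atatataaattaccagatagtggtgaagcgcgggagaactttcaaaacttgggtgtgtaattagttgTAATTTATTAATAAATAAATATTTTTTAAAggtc
Abd-B, chr3R:16958236-16958336: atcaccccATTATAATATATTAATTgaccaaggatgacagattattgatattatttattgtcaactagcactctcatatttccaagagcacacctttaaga
The run of A and T was 21 bases long at the strongest hth summit and 30 bases long in the bxd intron, but 7 bases at the next hth summit and 9 bases between Dfd and Scr. In the pooled list the median longest run was 9 bases over all summits (maximum 55) and also 9 over those in the members.

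hth and Antp held most of the summits. In the IDR list, 21 summits lay in hth and 9 in Antp, and none lay in the other members. All 30 were intronic. In the pooled list there were 86 in hth, 43 in Antp, 5 in Ubx and 2 in exd, and none in lab, pb, Dfd, Scr, abd-A or Abd-B. Replicate 1 had summits in the same 4 genes, with 81, 38, 2 and 1. Replicate 2 had 68 in hth, 42 in Antp, 23 in Ubx and none in exd, and it also had 7 in lab, 6 in abd-A, 5 in Abd-B, 3 in Scr, 2 in Dfd and 1 in pb.

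Of the 9 members at least 10 kb long, 2 held an IDR summit, against 51.7% of the 1977 coding genes of that length. In the pooled list and in replicate 1 the count was 3 of 9, beside 68.4% and 66.8% of these genes. In replicate 2 it was 9 of 9, beside 87.5%. With 9 genes the Wilson intervals were wide: 6.32% to 54.7% in the IDR list and 70.1% to 100% in replicate 2, both of which include the genome's share. In the pooled and replicate 1 lists the interval was 12.1% to 64.6%, with the genome's share a little above it, and neighbouring genes of a cluster are not independent. Over the 473.6 kb of the 10 members the IDR list had 0.0634 summits per kb (0.0427 to 0.0904), close to the 0.0571 over all arms. The pooled list had 0.287 per kb (0.241 to 0.340), replicate 1 0.258 (0.214 to 0.308) and replicate 2 0.332 (0.282 to 0.388), against 0.224 over all arms in each. Most of these summits were intronic, 125 of 136 in the pooled list. Over all introns the IDR, pooled, replicate 1 and replicate 2 lists gave 0.0740, 0.278, 0.277 and 0.265 per kb. The first 3 lay inside the members' intervals and the last below, but those intervals are for whole spans, exons included. In the members' introns alone the IDR list gave 0.0752 and the pooled list 0.318 per kb. Over all coding gene spans of at least 10 kb the 4 lists gave 0.0576, 0.235, 0.233 and 0.229. Without hth and Antp, a subset chosen after their counts were seen, the IDR value was 0 and the pooled value 0.0293 per kb.

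**Figure D1:**
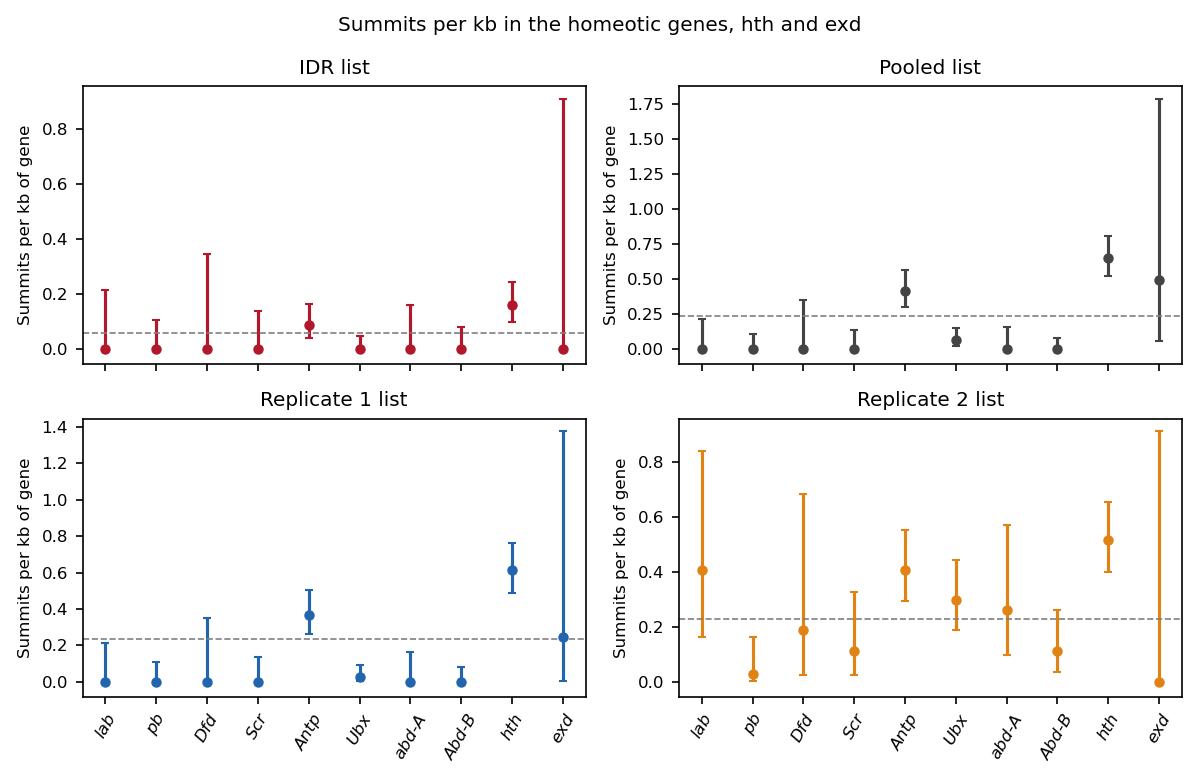
Summits per kb of gene (vertical axis) in each of the 10 members, in the 4 lists, with exact Poisson 95% intervals as bars; the dashed line is the summits per kb over all coding genes of at least 10 kb. hth lies above the line in all 4 panels and Antp has 0.418 summits per kb in the pooled list, while exd, the shortest gene, has the widest interval.

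No IDR summit lay within 500 bp of an annotated start site of any member, 0 of 10 genes (Wilson upper limit 27.7%), against 19.5% of all coding genes. With 10 genes, this count cannot be told apart from the genome's share by its interval. In the pooled list, the promoters of hth, Antp and exd held summits, 3 of 10 (10.8% to 60.3%) against 45.3% of coding genes. The same 3 genes had promoter summits in replicate 1, where the genome's share was 47.2%. In replicate 2 the count was 6 of 10 (31.3% to 83.2%) against 42.1%: hth, Antp, Ubx, abd-A, lab and Dfd.

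Over the pooled and replicate lists, the promoter summits had ranks from 6870 to 27897 of 30000. At the Antp start site at chr3R:6932840-6932840, the pooled summit was 226 bp upstream with rank 8935 and a −log10 q of 3.77, replicate 1 had the same base at rank 14514, and replicate 2 had a summit 261 bp upstream at rank 6870. Antp was the one member with promoter summits at matching positions in both replicates. At the hth start site at chr3R:10614276-10614276 the pooled list had a summit 3 bp downstream at rank 8733 and another 198 bp upstream at rank 11405. Replicate 1 had one 85 bp upstream at rank 7950, and replicate 2 one 194 bp upstream at rank 25232. The replicate summits were thus farther apart than the 100 bp allowed for a match. The first pooled summit had a match in replicate 1 alone, and the other in replicate 2 alone. At the other hth start site the pooled summit, 385 bp upstream, had rank 26115. Replicate 1 had one 356 bp upstream at rank 27897 and replicate 2 one 203 bp upstream at rank 24256, again not a match. At exd the pooled summit was 42 bp downstream of the first start site at rank 18623, replicate 1 had one 114 bp downstream at rank 14172, and replicate 2 had none. At the 4 members with promoter summits in replicate 2 alone, these were 164 bp downstream of the Ubx start (rank 18734), 60 bp and 1 bp upstream of abd-A starts (23501 and 22458), 359 bp downstream of a lab start (25317) and 307 bp upstream of the Dfd start (26181). The deposited −log10 q of these summits was 0.538, 0.304, 0.347, 0.248 and 0.223, in that order, all short of a q-value of 0.05. The hth promoter summits of replicate 2, at 0.251 and 0.282, were also short of it, while that of Antp, at 3.66, passed.

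hth, which encodes the MEIS-class cofactor, spans chr3R:10507561-10639568 on the minus strand (132.0 kb). Its summits per kb were 0.159 in the IDR list (0.0985 to 0.243), 0.652 pooled (0.521 to 0.805), 0.614 in replicate 1 (0.487 to 0.763) and 0.515 in replicate 2 (0.40 to 0.653). Among the 1977 long coding genes it stood at place 280, 225, 290 and 185 by this measure. The median long gene had 0.0208, 0.182, 0.178 and 0.207 summits per kb in the same lists. The 3 genes closest to hth in the 4 densities, by Euclidean distance over the 4 lists, were px (0.0268), Dg (0.0301) and aus (0.0386).

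The 21 IDR summits of hth were spread along the gene with a median spacing of 4.21 kb. In the transcript with 13 introns, 10 introns held at least 1 of them and 11 held a pooled summit. The strongest lay in intron 11 at position 10518035 with pooled rank 1165, replicate 1 rank 1263 and replicate 2 rank 992. The next was at 10533353 in intron 9, with ranks 1614, 1606 and 1645, and intron 9, 4.45 kb long, also held summits at 10530756 and 10531977 with IDR ranks 2889 and 4249. The replicates thus gave both sites a similar place. Introns 12, 10 and 8 held 1 summit each, at 10512382, 10527611 and 10539636, with ranks 6779, 5988 and 5433. Intron 7 held 10550270, 10551622 and 10560780, with ranks 2076, 6934 and 4894, and intron 6 held 10564467 and 10574767, with ranks 6285 and 7342. Introns 5, 4 and 3 had 1 each, at 10589400, 10593024 and 10597766, with ranks 4833, 3512 and 5877. The remaining 6 were in the 25.29 kb between the start sites, at 10617119, 10628473, 10630195, 10631965, 10634047 and 10636233, with ranks 4083, 7256, 2841, 6655, 2311 and 6522. The IDR density of this upstream stretch was 0.237 per kb (0.0871 to 0.516) and of the 106.7 kb downstream of it 0.141 (0.0787 to 0.232), and these intervals overlap. The longest stretch without an IDR summit that lies in the gene was 19.35 kb, from 10597766 to 10617119, which includes the inner start site.

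**Figure D2:**
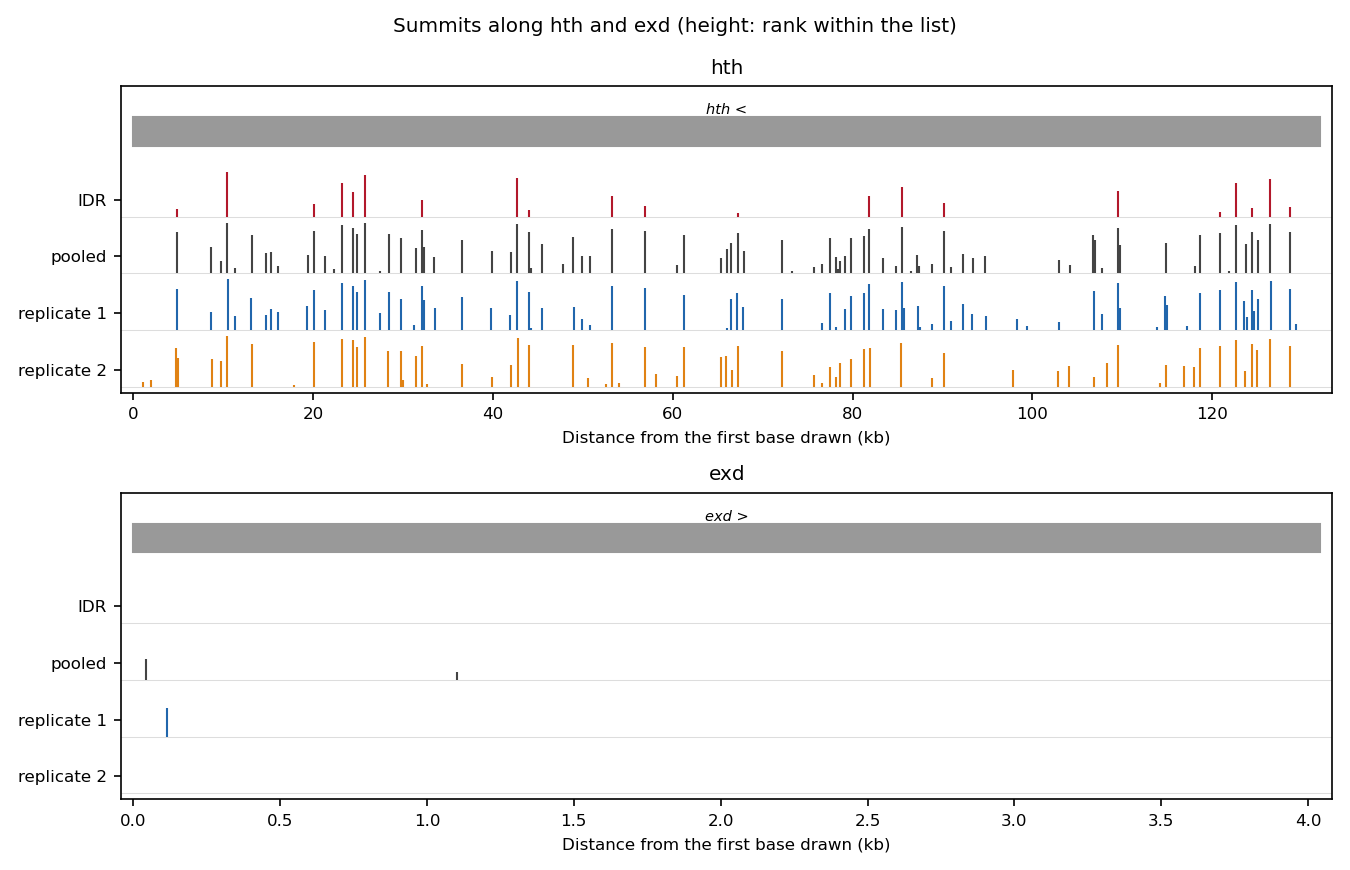
Positions of summits (horizontal axis, kb from the first base) along hth and exd, one row for each list; the height of a line is the rank within the list, taller for higher signal, and a grey bar is the gene, with an arrow for its strand. The 86 pooled summits run along the whole of hth, and exd has 2 pooled summits and 1 replicate 1 summit.

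exd, which encodes the PBC-class cofactor, is 4.04 kb long on the X chromosome (chrX:15992468-15996509, plus strand). Its 2 pooled summits were the promoter summit above and one in a coding exon at position 15993569, with rank 26491 and no match in either replicate. The IDR list had none in the gene, and the limit on its density (0.913 per kb) lies above the value of hth, so a density like that of hth was not detectable as different in a gene this short.

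Antp, the homeotic gene of the thorax, spans chr3R:6896253-6999228 on the minus strand (103.0 kb). It had 0.0874 IDR summits per kb (0.0400 to 0.166), 0.418 pooled (0.302 to 0.562), 0.369 in replicate 1 (0.261 to 0.506) and 0.408 in replicate 2 (0.294 to 0.551), or places 577, 545, 650 and 390 among the long genes. The strongest member summit of all lay in intron 1 of its transcript with 5 introns, at position 6914540, with rank 499 pooled, 489 in replicate 1 and 569 in replicate 2. The same intron held 6912576 (rank 1634) and 6912784 (4882), and intron 5 held 6903435 (3242). The other 5 were upstream of the innermost start site, at 6939870, 6949537, 6950291, 6951309 and 6954704, with ranks 6510, 6610, 6561, 2169 and 3716. No IDR summit lay in the 40.86 kb between the outermost start site and the next one, an upper limit of 0.0903 per kb. The stretches nearer the 3' end held 5 in 25.53 kb (0.196 per kb, 0.0636 to 0.457) and 4 in 36.59 kb (0.109, 0.0298 to 0.280). In the pooled list the 40.86 kb stretch held 11 summits (0.269 per kb, 0.134 to 0.482), in replicate 1 10 and in replicate 2 8. The interval of the pooled density there overlaps that of the middle stretch (0.388 to 1.07).

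The homeotic genes of the head and first thoracic segment had no summit in 3 of the 4 lists. lab (chr3R:6661427-6678590) held 7 summits in replicate 2, with ranks from 5901 to 25317, pb (chr3R:6707800-6742063) 1 at rank 22201, Dfd (chr3R:6791836-6802428) 2 at ranks 18197 and 19674, and Scr (chr3R:6823120-6849981) 3 at ranks 24553 to 29247. The strongest was in an intron of lab at 6674779. abd-A (chr3R:16807214-16830049) and Abd-B (chr3R:16927212-16972236) held 6 and 5, in both cases in replicate 2 alone. Those of abd-A had ranks from 11601 to 26091. In Abd-B 4 of the 5 were among the 7645 strongest peaks of replicate 2, at ranks 1659, 3185, 5326 and 6387, and all lay in introns of the annotated transcripts.

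These 24 summits of replicate 2 had a median rank of 18935.5, and 9 of them (37.5%) had a q-value under 0.05, against 42.6% of all replicate 2 peaks. Replicate 1 and the pooled list had no summit in these genes, which is how the 6 genes were grouped, so the lack of a match at these sites is not a separate result. Among the 7645 replicate 2 peaks of highest signal, 5 were in these 6 genes, 4 in Abd-B and 1 in lab, so not all of them were weak peaks. Of the same 7645 peaks, 21 were in hth and 9 in Antp, 2 genes set apart after their counts were seen. All 30 of these had a replicate 1 summit within 100 bp, against 86.5% (85.7% to 87.3%) of all 7645. Over all members the share was 30 of 36 (83.3%, 68.1% to 92.1%), where the 36 include the 5 unmatched by the grouping. Between the cluster genes it was 4 of 14 (28.6%, 11.7% to 54.7%). The bases around the 24 were 55.3% A or T (SD 9.29), against 61.5% for all replicate 2 summits. Whether the difference between the replicates came from the chromatin, the immunoprecipitation or the sequencing was not tested.

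Ubx (chr3R:16656623-16734426) was between these cases. It had no IDR summit (upper limit 0.0474 per kb), 5 pooled summits (0.0643 per kb, 0.0209 to 0.150), 2 in replicate 1 (0.0257, 0.0031 to 0.0929) and 23 in replicate 2 (0.296, 0.187 to 0.444), and the intervals of the replicates do not overlap. A q-value under 0.05 was deposited for 1 of the 2 in replicate 1 and 3 of the 23 in replicate 2. The 23 had a median rank of 20445, so the contrast rests mostly on weak peaks. All 5 pooled summits lay in intron 3 of Ubx, within 10.08 kb, the last of them 57.76 kb from the start site. The 2 strongest of them, at positions 16676662 (rank 7776) and 16666580 (rank 8017), had a replicate 2 summit within 36 bp and no replicate 1 summit closer than 3243 bp. One, at 16669962 with rank 20527, had summits in both. The strongest replicate 2 summit in the gene had rank 2477 at 16718125 and no match in replicate 1.

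**Figure D3:**
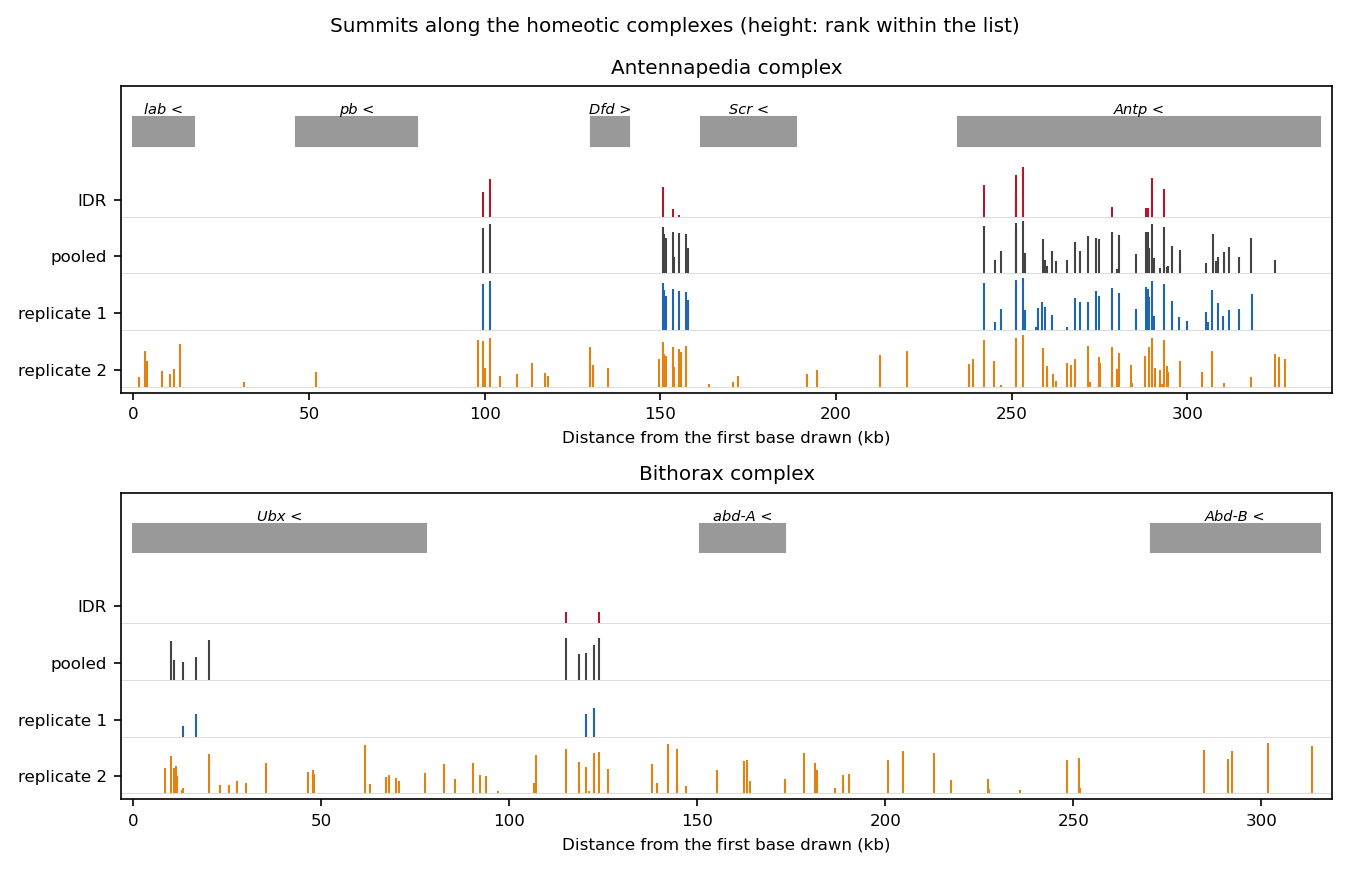
Summits along the Antennapedia complex and the bithorax complex (horizontal axis, kb from the first base of the first gene), one row for each list; line height is the rank within the list, taller for higher signal, and grey bars are genes with arrows for strand. Antp carries summits in all 4 rows, while abd-A, Abd-B, lab and pb carry them only in the replicate 2 row.

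Between adjacent cluster genes, 6 intervals of 315.9 kb in all held 7 IDR, 16 pooled, 11 replicate 1 and 63 replicate 2 summits, or 0.0222 per kb (0.0089 to 0.0457), 0.0507 (0.0290 to 0.0822), 0.0348 (0.0174 to 0.0623) and 0.199 (0.153 to 0.255). The 2 replicates differed here by more than their intervals, and the pooled value was nearer to that of replicate 1. A q-value under 0.05 was deposited for all 11 summits of replicate 1 and for 26 of the 63 (41.3%) of replicate 2. The shares over the full lists were 79.9% and 42.6%. Over all intergenic sequence of the arms the IDR, pooled and replicate 1 lists gave 0.0661, 0.215 and 0.204 summits per kb, above the Poisson intervals found between these genes, whereas the 0.250 per kb of replicate 2 lay inside its interval. Since the sequence between cluster genes also holds other genes, intergenic sequence is not a like reference. The values over the whole arms, 0.0571 in the IDR list and 0.224 in each of the others, stood on the same side of these Poisson intervals. Of the 315.9 kb, 136.5 kb lay in no gene, and in those bases the IDR density was 0.0220 and the pooled density 0.0660 per kb. Taking the replicate 2 list alone raised the pooled value from 0.0507 to 0.199 per kb, and taking the top peaks of one replicate in place of the IDR list gave 0.0127 (replicate 1) and 0.0443 (replicate 2) in place of 0.0222.

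The IDR summits fell in 3 of the 6 intervals. Between Dfd and Scr, where the lncRNA CR42651 and the microRNA gene mir-10 lie, there were 3 (0.145 per kb, 0.0299 to 0.424): 6812286 at rank 3526 and 6815129 at rank 6761 in the intron of CR42651, and 6816760 at rank 7594, 381 bp upstream of the CR42651 start. The pooled, replicate 1 and replicate 2 lists had 8, 7 and 9 summits there, so the replicates had similar counts in this interval. Between pb and Dfd there were 2: 6763080 at rank 2300 was 324 bp upstream of a start site of Ama, which encodes amalgam, an immunoglobulin superfamily protein, and 6760928 at rank 4191 was 1462 bp upstream of bcd, the anterior determinant of the embryo. Both had summits in each replicate within 8 bp, at ranks 2396 and 2112 and at 4176 and 4220. Replicate 2 held 11 in that interval, against 2 in each of the other lists.

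Between Ubx and abd-A there were 2 IDR summits. The one at 16771794, rank 6271, lay in the intron of the lncRNA bxd, 1395 bp downstream of its start, and the other, at 16780470, rank 6277, lay 3027 bp upstream of lncRNA CR44945. Neither had a replicate 1 summit within 100 bp: the nearest were 5172 bp and 1430 bp away, while replicate 2 had summits 9 bp and 49 bp away. Of the 7 IDR summits between the cluster genes 5 (71.4%, 35.9% to 91.8%) had a summit in both replicates, against 92.3% of all IDR summits, and the other 2 had one in replicate 2 alone. From lab to pb, Scr to Antp and abd-A to Abd-B the IDR, pooled and replicate 1 lists had no summits, whereas replicate 2 had 1, 4 and 17.

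The longest empty stretches fell in the same places. The pooled list had no summit between 16780470 and 16985167, 204.7 kb that cover abd-A and Abd-B, which was the 24th longest of 29994 stretches between pooled summits (median 1.14 kb). In replicate 1 it was 203.2 kb. In replicate 2 the longest stretch that reaches into Abd-B was 32.99 kb. In the IDR list 333.1 kb from 6427837 to 6760928, which cover lab and pb, were the 7th longest of 7639 stretches, and in replicate 1 303.7 kb were the 6th longest of 29994. The pooled stretch at lab and pb was shorter, 100.7 kb.

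All 30 IDR summits in the members had a summit within 100 bp in both replicates (Wilson lower limit 88.6%), against 92.3% of all IDR summits. Among the 136 pooled summits of the members, 66 (48.5%, 40.3% to 56.9%) had one in both, 39 in replicate 1 alone, 20 in replicate 2 alone and 11 in neither, against 43.8% in both over all 30000. The shares of hth (52.3%, 41.9% to 62.5%) and Antp (46.5%, 32.5% to 61.1%) overlapped. Since pooled peaks were called from the same reads as the replicate peaks, these shares describe the lists. The ranks of the 45 hth and 20 Antp summits found in both replicates had a Spearman rho of 0.817 and 0.842 across summits, which are not independent.

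**Figure D4:**
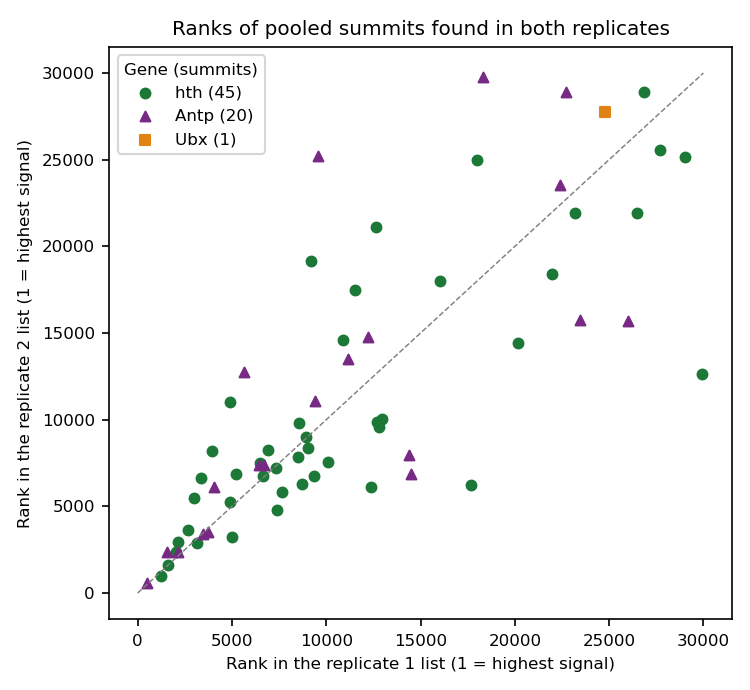
Rank in replicate 1 (horizontal axis) and in replicate 2 (vertical axis) of the pooled member summits with a summit within 100 bp in both; the dashed line marks equal ranks, and 1 is the highest signal. The 45 hth, 20 Antp and 1 Ubx summits lie along the line at high signal and scatter more at low signal.

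Base composition around the member summits was near that of the lists. Within 50 bp, the IDR summits of the members were 69.2% A or T (SD 6.12, 30 summits), against 68.9% (SD 8.14) for all IDR summits, and the pooled ones 61.6% (SD 11.03, 136 summits) against 62.1% (SD 10.5). Motifs were counted in the same 101 bases, on both strands, as a description of letters and not of binding. The TATA box letters TATAAA were present at 11 of 30 member IDR summits (36.7%, 21.9% to 54.5%), against 25.2% of all IDR summits. TGATNNAT, the letters that Exd with a homeotic protein prefers, were at 4 of 30 (13.3%, 5.31% to 29.7%), all in hth, against 9.18%, and TGACAG, the Hth letters, at 1 of 30 (3.33%) against 2.43%. The homeodomain core TAATTA was at 2 of 30 (6.67%) against 11%, GAGAG, the GAGA factor letters, at 3 of 30 (10%) against 8.15%, and GCCAT (Pho) and AGGNGGC (CTCF) at none (Wilson upper limit 11.4% each) against 10.9% and 1.56%. In the pooled list the shares of GCCAT were 19.9% (14.0% to 27.3%) in the members and 15.8% over all, and those of AGGNGGC 5.88% (3.01% to 11.2%) and 3.01%. All IDR shares over all summits lay inside the members' intervals. The motifs can overlap one another.

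Other genes of the pathway were counted at promoters by the same rule, and the lists share some genes. Their counts are to be read against the shares of all coding genes given above, 19.5% in the IDR list, 45.3% in the pooled list, 47.2% in replicate 1 and 42.1% in replicate 2. Of the 5 other coding genes of the Antennapedia complex, Ama had a promoter summit in all 4 lists, bcd had one in replicate 2 at rank 3536, and zen, zen2 and ftz had none. Of 10 partners and modifiers of homeotic proteins, none had an IDR promoter summit, and 8, 4 and 5 had one in the pooled, replicate 1 and replicate 2 lists. Of 10 regulators of homeotic transcription the counts were 0, 0, 2 and 2 in the IDR, pooled, replicate 1 and replicate 2 lists. Of 16 genes known as homeotic targets, Scr among them, they were 2, 8, 9 and 6, with ct, a homeobox gene of sensory organs, 254 bp upstream of a start (rank 3701) and salr, a zinc finger gene, 232 bp upstream (rank 4284) in the IDR list. At salr only replicate 2 had a promoter summit (rank 3574), while at ct both replicates did (best ranks 3102 and 5350). Of 30 other homeobox selector genes they were 3, 13, 12 and 12. In the IDR list tin, the heart selector, was the strongest of these, 215 bp upstream at rank 617, and ct was next at rank 3701. Of 30 non-coding genes that start between the cluster genes or in a bithorax gene they were 2, 2, 2 and 8, and the 2 in the IDR list were lncRNA CR45593, which shares the Ama summit, and CR42651. The shares of coding genes are no reference for these non-coding genes.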

How the data were processed

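The deposited peak lists came from ChIP-seq with an anti-GFP antibody on whole pupae of the CG17806-GFP line, 2 biological replicates. Per the deposited file descriptions, they were called on dm6 with a control alignment, on each replicate, on both together, and filtered on the irreproducible discovery rate. No aligner or peak caller is named: not given in the sources used here. The authors' signal values rank peaks within a list only; the deposited −log10 q-values and the summit offsets were used as given.

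Gene models were those of Ensembl release 115 (BDGP release 6, the genome of dm6). A promoter was 500 bp either side of any annotated start site, and replicate summits within 100 bp were taken to match. Densities used exact Poisson and shares Wilson 95% intervals (counting error only); no p-value was computed, and depth is unknown. Every peak was kept, also those above q 0.05. 0 columns of per-sample values were left unassigned. The members, gene lists and motifs were chosen with earlier results of these data known; all members and IDR summits were named, with the 2 strongest promoter genes of each list. Counts without hth and Antp, stretches between start sites and summit-free stretches were added after the data were seen. Python 3.11.15, numpy 2.4.6, scipy 1.17.1 and matplotlib 3.10.9 were used, and the functions were tested on simulated data.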

Additional observations from a re-analysis of the deposited data

How the results depend on the processing

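Leaving a replicate out meant using the deposited list of the other one, and no list was called anew. That list stood in for the pooled list, and its 7645 peaks of highest signal stood in for the IDR list. The count of 0 members with an IDR promoter summit held within 250 and 1000 bp, with the most upstream or the nearest start site, with any overlap of the interval and among the 1911 strongest IDR peaks, but was 3 in the pooled list and 0 to 1 with a replicate left out. IDR summits per kb of the members were 0.00845 among the 1911 strongest and, in an alternative added after seeing the data, 0 without hth and Antp. With a replicate left out they were 0.0591 to 0.0760. A shorter list lowers any density, in the members and between the cluster genes. The cut kept 1911 of the 7645 IDR peaks, and the density over all arms falls with that number. In the members the density fell by a larger factor, from 0.0634 to 0.00845 per kb. Whether this is more than counting error was not tested. Pooled summits per kb were 0.165 with a q-value under 0.05, 0.0293 without hth and Antp, and 0.258 to 0.332 with a replicate left out. The q-value limit also shortens the list: 62.7% of all pooled summits and 57.4% of those in the members passed it. Between the cluster genes the IDR density was 0 among the 1911 strongest and 0.0127 to 0.0443 with a replicate left out, and the pooled density was 0.0348 to 0.199; the larger values are those without replicate 1, and the cause was not tested. The share of pooled member summits matched in both replicates was 38.2% within 50 bp, 58.1% with any overlap and 76.9% with a q-value under 0.05. Their median rank percentile, 57.75 as reported, was 52.0 with the intervals between genes included and 52.9 to 56.4 with a replicate left out, and their A or T content 60.1% to 62.4%. Other alternatives kept their values within the spread or interval of the reported ones. Depth and mappability limit all values, since neither reads nor controls were used here, and a stretch without summits is a stretch without called peaks. No paired analysis was possible because all samples belong to 1 group and no result comes from a test.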
